A study of Mus musculus with 93 samples.

Results

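Cell proliferation genes were followed here as a set of 34 named genes, chosen by symbol: 26 that act in mitosis or drive it, and 8 that copy DNA or supply its nucleotides. All 34 were among the 30235 genes of the deposited table, and 34 of 18003 genes passed the filter on low counts in the eyecup against 23 of 17240 in the retina. The 11 not tested in the retina for too few counts were Ccnb1, Cdk1, Aurkb, Bub1, Melk, Kif23, Ndc80, Mki67, Top2a, Birc5 and Rrm2. A member that reached the retinal test had to have counts there, so the 23 do not stand for all 34.

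The study sequenced polyadenylated RNA from 93 tissue samples of female mice: the neural retina, and the posterior eyecup, which was the eye after the lens and the retina had been taken out. Mice were wild type (Efemp1+/+) or homozygous for a knock-in allele of Efemp1 (Efemp1ki/ki), a gene for an extracellular matrix protein in which a mutation causes Doyne honeycomb retinal dystrophy in people, and the labels give no treatment for any group. Ages were 3, 9 and 17 months. Of the 12 groups of tissue, genotype and age 10 held 8 libraries, while there were 6 for the youngest wild-type eyecups and 7 for the oldest knock-in eyecups. Whether the libraries of a group came from separate mice is not in the labels, and p-values therefore rest on a spread between samples that may be technical.

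Dividing cells make most of these transcripts in waves. The E2F factors switch on replication genes such as the MCM helicase and the sliding clamp PCNA before DNA synthesis, and FOXM1 with the MuvB and B-MYB proteins switches on the cyclin B, kinase, spindle and kinetochore genes before mitosis, many of them through the DREAM complex site called CHR and through CCAAT boxes bound by NF-Y. In the eye, the basal layer of the corneal and conjunctival epithelium divides throughout life, while neurons of the adult retina and the retinal pigment epithelium of the adult mouse do not normally divide.

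The stretch before the start of a gene is where those factors bind, so 7 promoters are printed to show the CCAAT box that most members held, the CHR and E2F forms that some held, and Spc25, which behaved unlike the others. Promoters were taken from RefSeq (build GRCm38.p6) as the 250 bases before the start, and 28 of the 34 members had one. Letters in capitals mark matches on either strand to CCAAT (the NF-Y box, ATTGG on the other strand), TTTGAA and TTTAAA (forms of the CHR) and TTTGGCGC, TTTCGCGC and TTTCCCGC (forms of the E2F site). TTTGGCGC and TTTCGCGC can overlap when they lie on opposite strands, and CCAAT and ATTGG can too. Cdk1, the kinase that starts mitosis (chr10:69352913-69353162, minus strand), held 3 CCAAT, 2 TTTGAA and 1 TTTCGCGC. Ccnb2, a B-type cyclin that activates it (chr9:70421555-70421804, minus strand), held 3 CCAAT and 1 TTTGAA. Ube2c, the ubiquitin-conjugating enzyme that serves the anaphase-promoting complex (chr2:164769679-164769928, plus strand), held 6 CCAAT and 1 TTTGAA. Mki67, which encodes the Ki-67 coat protein of mitotic chromosomes (chr7:135716380-135716629, minus strand), held 3 CCAAT and 2 TTTGAA. The helicase subunits Mcm5 (chr8:75109259-75109508, plus strand) and Mcm6 (chr1:128359706-128359955, minus strand) each held 2 CCAAT beside E2F forms. Spc25, an outer kinetochore subunit (chr2:69206214-69206463, minus strand), held 2 CCAAT and no match to the other 5 strings. CCAAT without the other strings was also found in Aurka, Bub1, Bub1b, Cenpe, Kif23, Mcm3, Pcna, Prc1 and Rrm2, so it is not particular to Spc25.
Cdk1: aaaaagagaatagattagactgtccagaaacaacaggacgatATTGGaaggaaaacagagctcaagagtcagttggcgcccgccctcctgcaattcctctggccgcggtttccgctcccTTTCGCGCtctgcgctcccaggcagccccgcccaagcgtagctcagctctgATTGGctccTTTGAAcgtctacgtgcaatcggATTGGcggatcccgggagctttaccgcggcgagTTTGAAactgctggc
Ccnb2: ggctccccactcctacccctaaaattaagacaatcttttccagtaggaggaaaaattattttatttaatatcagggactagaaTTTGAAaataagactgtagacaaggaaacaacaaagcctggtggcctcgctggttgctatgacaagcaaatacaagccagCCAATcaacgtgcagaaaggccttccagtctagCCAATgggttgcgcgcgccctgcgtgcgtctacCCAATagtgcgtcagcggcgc
Ube2c: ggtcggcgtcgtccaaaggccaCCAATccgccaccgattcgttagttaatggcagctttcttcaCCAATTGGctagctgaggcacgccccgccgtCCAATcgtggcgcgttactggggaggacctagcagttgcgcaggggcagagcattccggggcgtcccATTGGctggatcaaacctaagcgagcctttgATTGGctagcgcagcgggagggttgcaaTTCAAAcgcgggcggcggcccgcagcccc
Mki67: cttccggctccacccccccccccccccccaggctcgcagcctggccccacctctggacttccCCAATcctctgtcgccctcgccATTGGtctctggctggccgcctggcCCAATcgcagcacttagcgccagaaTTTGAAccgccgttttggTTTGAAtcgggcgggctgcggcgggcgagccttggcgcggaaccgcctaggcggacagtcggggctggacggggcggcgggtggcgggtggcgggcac
Mcm5: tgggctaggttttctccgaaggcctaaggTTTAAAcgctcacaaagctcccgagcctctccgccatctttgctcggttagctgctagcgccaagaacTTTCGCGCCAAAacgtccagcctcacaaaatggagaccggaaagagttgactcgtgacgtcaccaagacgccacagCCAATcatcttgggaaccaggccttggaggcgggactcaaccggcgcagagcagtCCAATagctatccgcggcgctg
Mcm6: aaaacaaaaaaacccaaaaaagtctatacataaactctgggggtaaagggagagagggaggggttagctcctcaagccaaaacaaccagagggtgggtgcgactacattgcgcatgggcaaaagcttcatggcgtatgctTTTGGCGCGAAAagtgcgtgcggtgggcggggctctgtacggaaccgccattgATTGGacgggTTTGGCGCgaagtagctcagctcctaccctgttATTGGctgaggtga
Spc25: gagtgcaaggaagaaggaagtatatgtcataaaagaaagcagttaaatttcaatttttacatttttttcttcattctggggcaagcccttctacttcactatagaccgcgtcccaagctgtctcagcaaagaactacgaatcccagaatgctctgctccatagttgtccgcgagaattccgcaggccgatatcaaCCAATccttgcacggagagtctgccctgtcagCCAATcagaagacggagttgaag

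CCAAT was found in 22 of the 28 member promoters (78.6%), 16 of 21 of mitosis members and 6 of 7 of replication members, against 34.5% of the 27025 gene promoters in the table. TTTGAA was found in 7 members (25%), Ccnb2, Cdk1, Kif11, Mcm2, Mki67, Top2a and Ube2c, against 16.3% of all promoters. All 7 also held CCAAT, a pairing present in 5.73% of all promoters. TTTAAA was found in 5 members (17.9%), Birc5, Ccnb1, Cenpf, Mcm5 and Plk1, against 12.1% of all. The E2F form TTTGGCGC was found in Mcm5 and Mcm6 (7.14% against 0.437%), TTTCGCGC in Cdk1, Mcm5 and Mcm6 (10.7% against 0.255%), and TTTCCCGC in no member (0.929% of all). These are matches of letters in a short window and say nothing of binding in these tissues.

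Library totals ran from 14236127 to 35297627 counts in the 45 eyecups (median 19982911) and from 9218127 to 37475492 in the 48 retinas (median 16813523). The eyecup label was checked against marker genes, and the eyecup held far more than choroid and pigment epithelium. Its median level of Krt12, the keratin of the corneal epithelium, was 14000 counts per 1000000 (CPM) and that of Krt5, the keratin of basal epithelial cells, was 9600, against 557 for Ttr, the most abundant pigment epithelium marker. Myh4 of skeletal muscle stood at 1460 CPM in the eyecup, and Glul of Mueller glia at 1120 in the eyecup and 2630 in the retina. The highest epithelial keratin in the retina, Krt10, was at 7.07 CPM. In 3 eyecups (knock-in 9 months replicate 7, 3 months replicate 4 and 17 months replicate 4) and 3 retinas (wild-type 3 months replicate 7 and 17 months replicate 2, knock-in 3 months replicate 5) the correlation with the rest of the group was more than 3 scaled median absolute deviations low, and counts without them are given where they changed most. In bulk tissue, fewer cells of a type and less RNA per cell cannot be told apart.

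All 34 members were measured well in the eyecup, and few of them were abundant in the retina. On the deposited TPM scale, which corrects for transcript length, medians over the 45 eyecups ran from 3.87 for Cenpe, a kinetochore motor, to 104 for Pcna (65.1 to 139 over the libraries). Ube2c followed at 48.5 (25.5 to 83.6), Ccna2, the S-phase and mitotic cyclin A, at 33.2, Rrm2, the ribonucleotide reductase subunit made in S phase, at 27.4, and Top2a, the topoisomerase that untangles chromosomes, at 27.1 (10.9 to 43.9). Mki67 stood at 15.6 (6.46 to 24), on a median of 2085 counts per eyecup.

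In the 48 retinas the order was another one. Spc25 led at a median of 133 TPM (78.2 to 179), above Pcna at 118 (105 to 145), a pair whose ranges overlap. Ccna2 followed at 53.1 (38.1 to 67.9) and Bub1b, the checkpoint pseudokinase BubR1, at 27.4 (17.7 to 42.7), each below the one before it at the median. Mcm4 and Mcm2 came next at 11.5 and 8.89. Mki67 was last at 0.046, with no count in 5 libraries and at most 11 counts in any. Bub1, a checkpoint kinase, was at 0.0575 TPM, Aurkb, the kinase of the chromosomal passenger complex, at 0.077, and Top2a at 0.079. Spc25, Pcna, Ccna2 and Bub1b were thus well measured in a tissue where the classical proliferation marker was close to undetected.

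**Figure D1:**
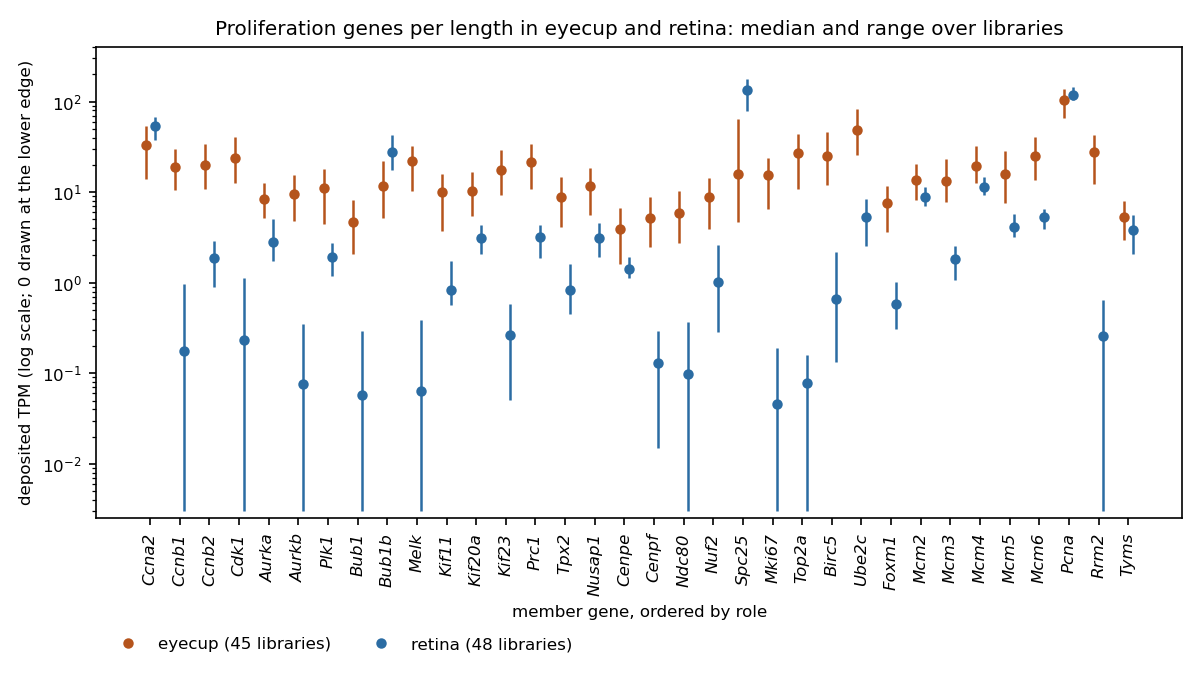
Median deposited TPM of each of the 34 members in eyecup and retina on a log axis, with lines from the lowest to the highest library (45 eyecups, 48 retinas) and zeros drawn at the lower edge. Spc25, Bub1b, Ccna2 and Pcna have retinal medians above their eyecup medians on this scale. Of these, Spc25 and Bub1b were also higher in the retina in the test on counts. Mki67 and Top2a are at the bottom of the retinal range.

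A joint fit of both tissues (edgeR's quasi-likelihood test, Benjamini-Hochberg adjusted p under 0.05 to call) called 31 of the 34 members higher in the eyecup, against 47.7% of the 19210 genes tested, and 2 lower, against 47%. The median log2 difference of the members was 3.82, and that of all genes 0.01. This fit took eyecups and retinas as independent samples, and pairs across tissues were not checked. Of the 31, 11 did not pass the filter in the retina and entered this fit through their eyecup counts alone, so their direction was fixed by the filter and is a description. Their log2 estimates ran from 5.47 for Birc5 to 9.06 for Top2a, on retinal medians of 1 to 6 counts, and the order among them is not read here. The other 23 members had counts in both tissues. Of these 20 were higher in the eyecup and 2 lower, with a median of 2.64. Cenpf, a kinetochore protein, differed most among the 23 (6.06 ± 0.10, edgeR adjusted p = 1.27e-68), followed by Foxm1 at 4.55 and the spindle motor Kif11 at 4.23. Cenpf had a retinal median of 10 counts (1 to 23 over the libraries), so the size of its difference rests on low retinal counts too. Medians by role were 3.51 for 5 spindle proteins, 2.96 for 4 kinetochore proteins, 2.34 for 3 kinases and 1.49 for 7 replication genes.

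The 2 members higher in the retina were Spc25 (-2.08 ± 0.10, edgeR adjusted p = 4.58e-33) and Bub1b (-0.53 ± 0.05, edgeR adjusted p = 9.37e-19). Ccna2 did not differ past the threshold (0.02, edgeR adjusted p = 0.653). Pcna was higher in the eyecup in counts (0.47 ± 0.03). The scale matters here, since the median of all genes went from 0.01 to -0.52 on log2(TPM + 1) and to -0.35 with GC offsets. Higher genes made up 50.4% of all calls in counts, 32.9% on log2(TPM + 1) and 40.9% with GC offsets. On log2(TPM + 1) Pcna was lower in the eyecup (-0.25) and Ccna2 too (-0.71), with 30 members still higher, and with GC offsets Ccna2 was lower (-0.22), with 31 members higher. Spc25 and Bub1b were lower under every alternative run. The other genes of the same processes, from lists that hold none of the members, gave 47 of 48 mitosis genes higher in the eyecup and 28 of 32 replication genes, with 2 lower. Some of these mitosis genes did not pass the filter in the retina, so their direction was fixed by the filter. The list counts were not split by that filter and are descriptions. Among 18 genes of G1 cyclins, their kinases and E2F factors, 15 were higher and 3 lower, and among 23 cell cycle brakes 16 were higher and 6 lower.

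Within the eyecups the members varied together from library to library. With group means subtracted, the median Pearson r between 2 members over the 45 eyecups was 0.847 (561 pairs, -0.685 to 0.973), and between a mitosis and a replication member 0.825. In the 48 retinas the median over the 253 pairs of tested members was 0.054. These correlations are descriptions, since the values of a library share its depth and its mix of cells. Tpx2, a spindle assembly factor, followed the mean of the other members most closely (r = 0.973), then Prc1, which bundles midzone microtubules (0.971), and Cdk1 (0.968). The 3 members that followed it least were Ccna2 (0.746), Bub1b (0.349) and Spc25 (-0.554), which were also the 3 not called higher in the eyecup than in the retina in the counts.

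The set moved with the epithelium of the eyecups. Over the 45 libraries, with group means subtracted, the mean log2 level of the members had r = 0.876 with the mean of 7 basal epithelial markers (Spearman's rank correlation 0.835, and r 0.845 without the 2 libraries farthest from the median) and 0.858 with 15 markers of ocular surface and skin epithelium. It had 0.622 with leukocyte markers, -0.577 with Mueller glia and -0.753 with rods. For the retinal pigment epithelium r was 0.096, for lens 0.056 and for skeletal muscle -0.099. Melk had 0.917 with the basal markers and Mki67 0.863, whereas Spc25 had -0.698 with them and 0.806 with rods (rank correlation 0.906). Bub1b had 0.135 with the basal markers and 0.092 with rods. All these levels are shares of the same libraries, so the lists are not independent of each other or of the members.

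**Figure D2:**
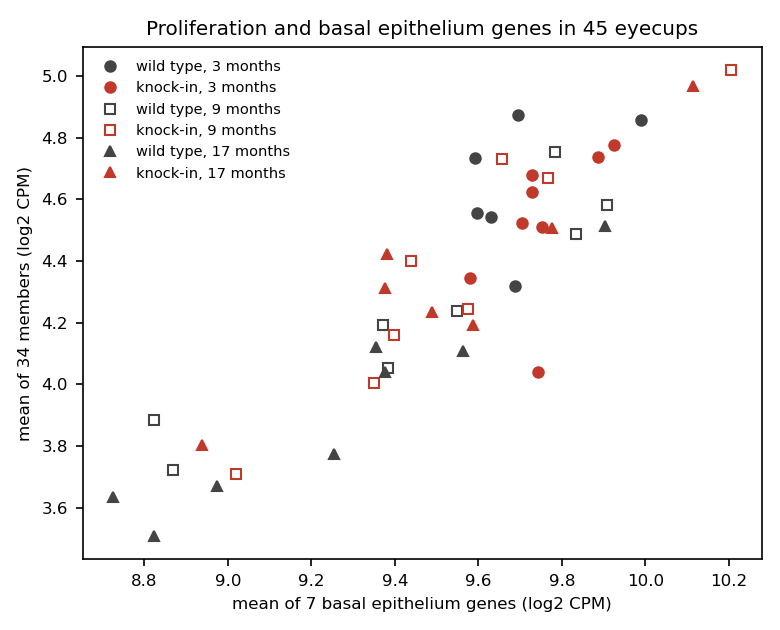
Mean log2 CPM of the 34 members against the mean log2 CPM of 7 basal epithelial markers, 1 point per eyecup library (45), by genotype and age. Libraries with more basal epithelial RNA have more RNA of the members, with r = 0.876 after group means are subtracted.

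Among 15369 other genes tested in the eyecup, the 10 whose levels followed the members' mean most closely had r from 0.9384 to 0.9585 over the 45 libraries. They were Ncaph, a condensin subunit, Ckap2l, Racgap1, Kif4, F2rl1, Rrm1, Topbp1, Hn1l, Aldh1a3 and Rbl1, and 5 of them stood in the lists of other cell cycle genes. F2rl1 encodes a protease-activated receptor and Aldh1a3 a retinaldehyde dehydrogenase, and neither was on a cell cycle list.

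In wild-type eyecups the members were lower at 17 than at 3 months. By edgeR 26 of the 34 fell, against 3.16% of the 18003 genes tested, and none rose, against 2.73%. The median log2 difference was -0.77 (all genes 0.03), with single members from -0.92 to -0.14, and 33 members were lower at an unadjusted p under 0.05 (13% of all genes). Mki67 (ENSMUSG00000031004.8, chromosome 7, 135689784 to 135716361, GRCm38) had a lowest, median and highest level of 93.8, 128 and 152 CPM in the 6 libraries at 3 months, 61.7, 76.6 and 131 in the 8 at 9 months, and 44.3, 64.5 and 111 in the 8 at 17 months. It fell by 0.91 ± 0.21 on the log2 scale (edgeR adjusted p = 0.00848). Of the 8 libraries at 17 months 7 lay below every library at 3 months, and 1 lay within their range. This held for 23 of the 34 members, Mki67 included, and no member's groups were apart altogether (0.783% of all genes had 17 months wholly below 3 months). The library that stayed within the younger range was replicate 6 in the sum over the members, at 980 CPM against 495 to 725 in the other 7, and it also had the highest basal epithelial level and the lowest rod level of its group. Their part in its level was not tested.

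**Figure D3:**
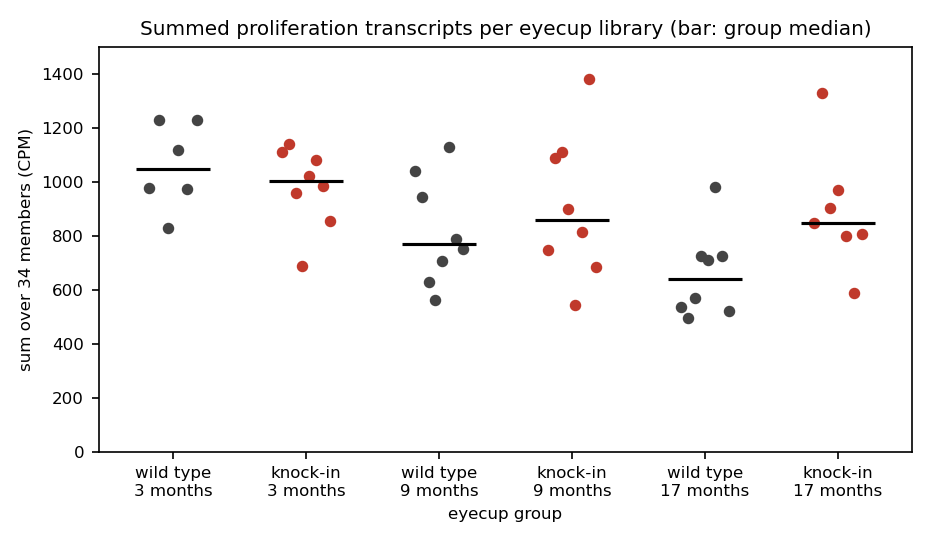
Sum of the CPM of all 34 members in each eyecup library (points) by genotype and age, with group medians (bars). Wild-type medians go from 1050 CPM at 3 months to 770 at 9 and 640 at 17 months, and knock-in medians from 1000 to 857 and 847, with overlapping libraries.

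The 3 cyclins all fell. Ccnb2 was at 15.5, 18.1 and 23.8 CPM (lowest, median, highest) at 3 months and 6.46, 10.5 and 16 at 17 months, a fall by 0.86 ± 0.22 on the log2 scale (edgeR adjusted p = 0.0162). Ccna2 fell by 0.64 and Ccnb1, the other B-type cyclin, by 0.77. Among the 7 kinases 6 fell. Cdk1 went from 16.7, 20.8 and 25.5 CPM to 7.7, 11 and 19.6 and fell by 0.85 (edgeR adjusted p = 0.0217), and Bub1 had the largest difference of the set (-0.92 ± 0.26, edgeR adjusted p = 0.0295). Plk1 and Aurka, kinases of spindle assembly, and Aurkb fell by 0.80, 0.62 and 0.74. Bub1b fell by 0.37 (edgeR adjusted p = 0.0476), from 22.6, 26.6 and 30.3 CPM to 13.9, 20.7 and 25.7. Melk was the kinase that did not pass the threshold (-0.52, edgeR adjusted p = 0.0966).

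All 6 spindle proteins fell, by 0.67 to 0.84: Prc1 by 0.80 ± 0.19 (edgeR adjusted p = 0.0129), Tpx2 by 0.79, Nusap1, a microtubule stabiliser, by 0.74, and the motors Kif11, Kif23 and Kif20a by 0.84, 0.77 and 0.67. Of the 5 kinetochore proteins Cenpe, Cenpf, Ndc80 and Nuf2 fell, by 0.82, 0.80, 0.83 and 0.86. Spc25, which sits in the same 4-protein NDC80 complex as Ndc80 and Nuf2, did not (-0.14 ± 0.36, edgeR adjusted p = 0.826). Its libraries spread from 3.82 to 22 CPM at 17 months around a median of 9.11, while those at 3 months lay between 8.45 and 15.1, so the older group reached both below and above the younger one. The 2 libraries above it, replicates 1 and 2 (20.3 and 22 CPM), had the highest rod levels of their group (mean log2 CPM 9.86 and 10.13). Replicate 6, with the lowest rod level (4.90), was at 5.73 CPM. The part of rods in this spread was not tested. Top2a, Birc5, which encodes survivin of the passenger complex, Ube2c and the transcription factor Foxm1 fell by 0.85, 0.80, 0.77 and 0.79. Foxm1 went from 18.7, 22.6 and 28.3 CPM to 9.47, 13.1 and 20.3.

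Of the 8 replication genes 2 passed. Rrm2 (-0.79, edgeR adjusted p = 0.0256) and Tyms, thymidylate synthase (-0.63 ± 0.16, edgeR adjusted p = 0.0199), fell. The 5 MCM helicase subunits ranged from -0.65 for Mcm5 (edgeR adjusted p = 0.0575) to -0.36 for Mcm2 (0.122), and Pcna was at -0.28 (0.14). All 8 passed an unadjusted p under 0.05, and their median was -0.57 against -0.79 for the 26 mitosis members. Whether replication and mitosis members differed from each other was not tested. Pcna stood at 52.5, 64.2 and 76.1 CPM at 3 months and 44.3, 53.3 and 65.3 at 17 months, with overlapping groups. Outside the set, 30 of 48 other mitosis genes were lower at 17 months, Cdc25c, Stmn1, Lmnb1 and Incenp with the smallest p, and 10 of 32 other replication genes, among them Prim1 (-0.71) and Tk1 (-0.76). Of the 18 genes of G1 and E2F 1 was lower, Ccne1 (-0.63), and of the 23 brakes 2, Rbl1 (-0.61) and Cdkn2b (-0.56).

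How many members passed in this comparison rested on single libraries, while their median did not. Leaving out each of the 14 wild-type libraries in turn gave 2 to 32 called members and medians from -0.88 to -0.69. The count was 2 without replicate 9 at 3 months, 4 without replicate 3 and 14 without replicate 6 at 3 months, and 8 without replicate 8 and 15 without replicate 3 at 17 months. At the other end it was 32 without replicate 6 at 17 months.

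Markers of several cell types moved with this difference. Of the 15 ocular surface and skin markers 5 were lower at 17 months in wild-type eyecups (median -0.53), Krt13 and Krt12 among them. Of the 7 basal markers none passed by edgeR (4 at an unadjusted p under 0.05, median -0.46), with summed levels of 14700, 15300 and 20000 CPM (lowest, median, highest) at 3 months and 8330, 12100 and 17600 at 17 months. None of the 8 rod markers passed (0 unadjusted, median 0.89). Of the 5 fibroblast markers 2 were lower, Col1a1 and Col1a2 (median of the 5 -0.46), with sums of 1510, 2000 and 2360 CPM at 3 months and 738, 1230 and 1860 at 17 months. Of the 10 leukocyte markers 3 were higher, Lyz2, Cd68 and Ptprc (median 0.54), with sums of 375, 385 and 478 CPM at 3 months and 419, 649 and 758 at 17 months. All 6 tested lens genes were lower (median -5.59), with sums of 0.796, 1.62 and 366 CPM at 3 months and 0.788, 1.55 and 2.8 at 17 months. The median sums were thus close, and the lens difference lay at the top of the younger range. Without the libraries that stand apart 28 members fell. Among the eyecups those libraries were all knock-ins, so this difference could move only through the filter, the scaling and the shared spread. With the basal epithelial level of each library as a term in the edgeR fit, a choice made after seeing the data, 2 members fell between 3 and 17 months, Mki67 by 0.48 (adjusted p = 0.013) and Prc1 by 0.38 (adjusted p = 0.0374). The members' median was then -0.34, and 26 had an unadjusted p under 0.05. The shares of all genes passing in these alternative fits are not given here, so their member counts are descriptions.

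In knock-in eyecups no member passed between 3 and 17 months by edgeR, while 469 of the 18003 genes rose (2.61%) and 174 fell (0.967%). None of the 34 reached an unadjusted p under 0.05 either, a threshold that 19.1% of all genes met. DESeq2, limma voom with quality weights and limma on log2(TPM + 1) called none, with 0, 13 and 16 members at an unadjusted p under 0.05. Shares of all genes are not given for these fits, so the counts are descriptions. The median of the members was -0.20 (all genes 0.06), and the smallest adjusted p was that of Aurkb (0.34). Mki67 stood at 79.3, 126 and 134 CPM at 3 months, 56, 102 and 172 at 9 months, and 60.5, 95 and 142 at 17 months, so that the oldest group spanned the whole range of the youngest (-0.25 ± 0.20). Top2a went from 42.7, 92.3 and 102 CPM to 46.3, 68.8 and 119, Foxm1 from 18.5, 23.2 and 25.8 to 11.4, 18.7 and 26.5, and Cdk1 from 14, 20.7 and 27.4 to 9.74, 16.4 and 26.4. The medians of these 3 were lower at 17 months while their highest libraries were not far from those at 3 months or above them. Leaving out each of the 15 libraries in turn gave no call in any fit, and medians from -0.338 to -0.16. With the basal epithelium term edgeR called 2 members, both higher at 17 months: Mcm4 (0.30, adjusted p = 0.0388) and Pcna (0.29, adjusted p = 0.0424). For that fit too the share of all genes is not given.

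That the members passed in wild types and not in knock-ins does not show that the genotypes differed. A test of whether the age change itself differed by genotype (17 against 3 months, knock-in less wild type) was called for 0 of 34 members and 0 of the 18003 genes by edgeR (0%), with an adjusted p of 0.998 for the members, and DESeq2 and both limma fits called none. All 34 estimates were above 0, with a median of 0.53 (all genes 0.02), and 13 members had an unadjusted p under 0.05 on the higher side, as did 2.64% of all genes. Bub1 had the largest (1.02 ± 0.36), followed by Kif11 (0.79) and Rrm2 (0.77 ± 0.30), and Pcna had 0.46 ± 0.17. In knock-in eyecups at 3 months replicates 3 and 4 were lowest for Bub1 (4.95 and 2.85 CPM, against 6.67 to 11 in the others). Their TPM for Bub1 (4.76 and 4.27) lay within the range of the others (3.86 to 7.18). The Bub1 estimate without these libraries is not given here. The members vary together between libraries, as given above, so their shared sign is not 34 separate observations.

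**Figure D4:**
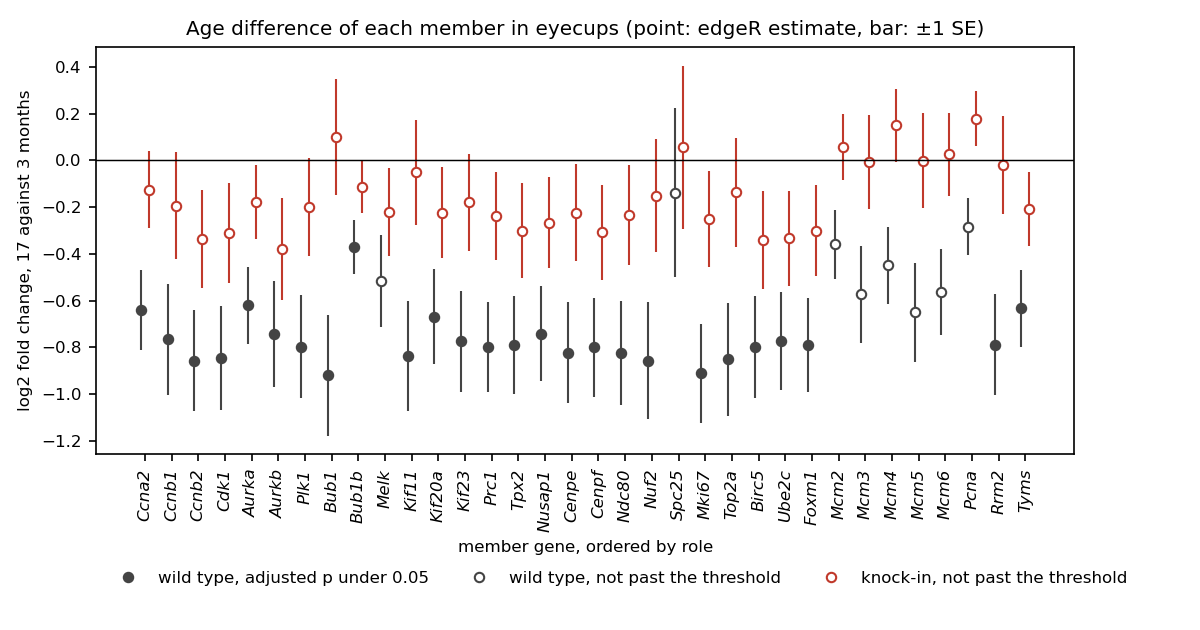
Log2 difference between 17 and 3 months in the eyecup for each of the 34 members, with SE, in wild-type and in knock-in mice, filled where the adjusted p was under 0.05. Wild-type values have a median of -0.77 and knock-in values of -0.20, and the difference between the genotypes was called for no member.

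Knock-in and wild-type eyecups were also compared at each age. At 3 months no member was called by edgeR (3.07% of all genes were) and none reached an unadjusted p under 0.05 (17.1%), with a median of -0.09. At 9 months none was called (0.00555% of all genes) and none reached an unadjusted p under 0.05 (1.38%), with a median of 0.15. DESeq2 and both limma fits called none at either age. At 17 months none was called (0.0611% of all genes), and 25 members were higher at an unadjusted p under 0.05, as were 6.74% of all genes, with a median of 0.46 (all genes 0.03). DESeq2 and both limma fits called none there, with 25, 15 and 29 members at an unadjusted p under 0.05 (DESeq2, voom, log2(TPM + 1)). Shares of all genes are not given for those fits, so the counts are descriptions. Mcm2 had the smallest adjusted p (0.46 ± 0.14, edgeR adjusted p = 0.246), with 16.6, 22.2 and 29.9 CPM in the 8 wild-type libraries and 18.2, 28.7 and 40.7 in the 7 knock-in ones. Mcm5, at 12.1, 18.5 and 28.4 CPM in wild types and 16.5, 26.1 and 47 in knock-ins, had 0.64 ± 0.20 (edgeR adjusted p = 0.258). Mki67 had 0.57 ± 0.20 (edgeR adjusted p = 0.324). For 26 of the 34 members 6 of the 7 knock-in libraries were above the wild-type median, and for 4 all 7 were, yet the groups overlapped for all 34 (0.0444% of all genes had every knock-in library above every wild-type one). Basal epithelial markers summed to 12100 CPM at the median in the wild types and 15600 in the knock-ins. With the basal level as a term the members' median was 0.20 and 11 had an unadjusted p under 0.05, a count without its share of all genes. Averaged over the ages no member was called, against 4.48% of all genes, and 6 reached an unadjusted p under 0.05, against 19.5% (median 0.16). The genotype difference in the eyecup against that in the retina was called for no member either (3.23% of all genes), and 3 reached an unadjusted p under 0.05 (18.5%). DESeq2 and both limma fits called none in these 2 comparisons.

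Averaged over genotypes, 5 members fell from 3 to 9 months, against 7.22% of all genes: Aurkb (-0.49 ± 0.15, edgeR adjusted p = 0.0324), Ube2c (-0.43), Plk1 (-0.44), Foxm1 (-0.41) and Aurka (-0.34). The median was -0.29, 17 members had an unadjusted p under 0.05 (15.5% of all genes were lower at it), and Spc25 was the 1 member above 0 (0.48, not called). This count moved between 0 (without knock-in 3-month eyecups 3 and 4) and 16 (without the libraries that stand apart from the rest). From 9 to 17 months none was called (5.2% of all genes), and 4 reached an unadjusted p under 0.05 (21.8%), with a median of -0.19. DESeq2 called none there and limma voom 2. From 3 to 17 months 26 fell, against 9.13% of all genes, with a median of -0.48, and leaving out each of 29 libraries gave 18 to 30. Ccnb2 fell by 0.60 ± 0.15 (edgeR adjusted p = 0.00487) and Mki67 by 0.58 (edgeR adjusted p = 0.00514). The 8 that did not pass were Bub1, the 5 MCM subunits, Pcna and Spc25. In that comparison 33 of the 48 other mitosis genes fell, and of the 23 brakes 4 rose (11.6% of all genes rose) and 5 fell. The gene with the smallest p among the brakes was Cdkn2a, which encodes the p16 and Arf inhibitors and marks senescent cells (1.30 ± 0.25, edgeR adjusted p = 0.000294). All these values are from the fit without the basal epithelium term. With that term in the edgeR fit 4 members fell (the share of all genes is not given), and the differences of Ccnb2 and Mki67 were smaller. They were Ccnb2 (-0.25, adjusted p = 0.0392), Mki67 (-0.25, adjusted p = 0.0358), Foxm1 (-0.22, adjusted p = 0.0394) and Spc25 (-0.64, adjusted p = 0.0263).

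In the retina single members changed with age in both directions, as many other genes did. Spc25 (ENSMUSG00000005233.16, chromosome 2, 69193895 to 69206194, GRCm38) stood at 60.2, 78.6 and 89.9 CPM in wild types at 3 months, 66.5, 70.5 and 84.6 at 9 months and 28.2, 44.9 and 47.6 at 17 months. In knock-ins it stood at 69.9, 77.4 and 98.2 CPM, then 55.4, 63.3 and 69.3, then 37.8, 44.8 and 48.8. In both genotypes all 8 libraries at 17 months lay below all 8 at 3 months. Averaged over genotypes Spc25 fell by 0.85 ± 0.05 from 3 to 17 months (edgeR adjusted p = 4.79e-18), by 0.21 from 3 to 9 months (edgeR adjusted p = 0.00159) and by 0.64 ± 0.05 from 9 to 17 months (edgeR adjusted p = 1.88e-12).

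Bub1b (ENSMUSG00000040084.9, chromosome 2, 118598211 to 118641591) moved the other way. It stood at 27.9, 34.5 and 45.3 CPM in wild types at 3 months and 43.5, 50.3 and 65.8 at 17 months, and in knock-ins at 30.1, 39.2 and 50.5 and then 39.2, 50 and 61.5. The groups overlapped in both genotypes, and 7 of the 8 wild-type libraries at 17 months were above all those at 3 months. Averaged over genotypes Bub1b rose by 0.44 ± 0.08 from 3 to 17 months (edgeR adjusted p = 5.79e-05). Tyms rose by 0.34 (edgeR adjusted p = 0.000455), with 2.67, 3.56 and 5.72 CPM in wild types at 3 months and 3.83, 4.56 and 5.45 at 17 months, and 3.37, 4.18 and 4.77 then 4.64, 5.2 and 6.55 in knock-ins. Ccna2 was highest at the middle age in wild types, with 34.8, 39.4 and 47.8 CPM at 3 months, 48.4, 54.8 and 59.6 at 9 months and 33.4, 44.8 and 49.8 at 17 months. Averaged over genotypes it rose by 0.34 ± 0.05 from 3 to 9 months (edgeR adjusted p = 1.21e-06) and fell by 0.26 from 9 to 17 months.

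**Figure D5:**
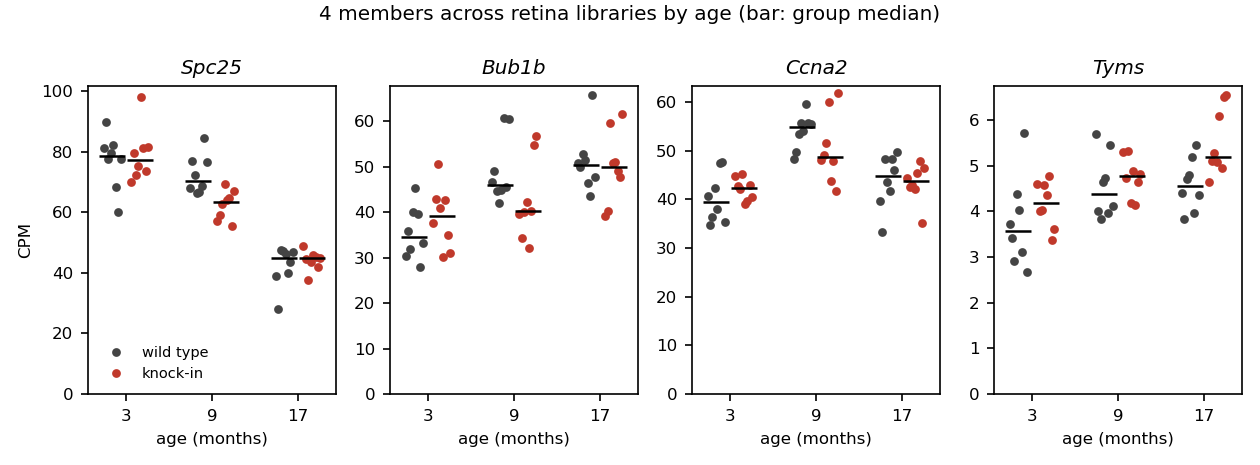
CPM of Spc25, Bub1b, Ccna2 and Tyms in each retina library by genotype and age, with group medians. Spc25 at 17 months lies below 3 months in both genotypes without overlap, while Bub1b is higher at 17 months with overlapping libraries.

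The other tested members also went both ways. Averaged over genotypes, from 3 to 17 months 2 rose (19.1% of all genes) and 5 fell (17.3%), with a median of -0.10 (all genes 0.00): the 5 were Spc25, Nuf2 (-0.61), Tpx2 (-0.37), Mcm3 (-0.30) and Pcna (-0.08), which was at 0.05 on the log2(TPM + 1) scale. From 3 to 9 months 5 rose (17.4%) and 6 fell (16.6%), with a median of -0.07: Ccna2, Bub1b, Nusap1, Prc1 and Tyms rose, and Nuf2 (-0.49), Aurka, Mcm2, Spc25, Mcm4 and Pcna fell. From 9 to 17 months 1 rose (12.7%), Mcm4 by 0.12, and 3 fell (14.3%), Spc25, Ccna2 and Nusap1. Within wild types 1 rose (9.89%) and 3 fell (7.92%) from 3 to 17 months, and within knock-ins 2 rose (9.74%) and 3 fell (9.01%). Out of 23 tested members, these counts lie on both sides of the shares of all genes. They are not read as a trait of the set. Without the libraries that stand apart 3 rose in wild types (Bub1b, Ccna2 and Tyms) and 2 fell (Mcm3 and Spc25), with Tpx2 no longer called, and in knock-ins 1 rose (Tyms) and 2 fell (Nuf2 and Spc25). Spc25 fell by 0.87 in wild types and 0.84 in knock-ins, and the difference in age change between the genotypes was called for no member by edgeR (0% of all genes), DESeq2 or limma, with 1 at an unadjusted p under 0.05 (4%). Of the 38 other mitosis genes tested in the retina 5 rose and 11 fell from 3 to 17 months.

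Between knock-in and wild-type retinas edgeR called no member at 3 months (1.83% of all genes), 9 months (0%) or 17 months (0.406%). At an unadjusted p under 0.05 there were 1, 2 and 3 members at these ages, against 19.7%, 6.07% and 15.2% of all genes. Averaged over the ages Pcna was lower in knock-ins by 0.08 on the log2 scale (-0.08 ± 0.02, edgeR adjusted p = 0.0203, 5.24% of all genes called), a call that was lost without the filter on low counts (adjusted p = 0.0614). DESeq2 also called Pcna at 17 months (-0.12, adjusted p = 0.0408), as did limma on log2(TPM + 1), and limma voom called Tpx2 at 3 months (-0.50, adjusted p = 0.0391).

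Of the members 14 overlap another annotated gene, and the labels do not state whether counting used strand, so reads of such pairs may not have been told apart. Examples are Ube2c with Tnnc2, a troponin of skeletal muscle, Ccna2 with Exosc9, Kif20a with Cdc23 and Nusap1 with Oip5. Ccnb1, Ccnb2, Pcna and Tyms have named pseudogene copies that could share reads. Spc25 and Bub1b overlap no annotated gene and have no named pseudogene.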

How the data were processed

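Polyadenylated RNA was sequenced with the TruSeq Stranded mRNA kit, per the labels' protocols, from 45 eyecup and 48 retina samples, grouped by tissue, genotype and age from the labels. Which aligner and counter were used, and with which strand setting, is not given in the sources used here. Genome build GRCm38.p4 comes from the submitters' processing notes. The authors deposited estimated counts per gene, and the tests used them rounded to integers. The deposited TPM values reach a sum of 1000000 per library over protein-coding genes only, so they count here as a score, used for levels between genes and in 1 alternative, with a pseudocount of 1. Each deposited file has 1 column that fits none of the sample labels, and it stayed out. The closest pair of libraries in a group differed by more than sampling noise (chi-square per degree of freedom 2.19).

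Genes passed edgeR's filterByExpr and were scaled by TMM. Group means were fitted with edgeR 4.0.16 in R 4.3.3 (robust quasi-likelihood test), once over the 6 groups of each tissue and once over all 12 groups. P-values were adjusted by Benjamini-Hochberg over all genes tested, and a gene was called at an adjusted p under 0.05. Standard errors were derived from the F statistic, and CPM are TMM-scaled. Reads are not independent molecules, and replicate spread rather than counting error entered each test.

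All 34 members could be named in each comparison. Of the other cell cycle lists, up to 4 called genes with the smallest p could be named, and the genes most like the members are the 10 others with the highest r to the members' mean. The members and lists were chosen with earlier results of these data known. Alternatives were other size factors, no filter, DESeq2 1.42.0, limma 3.58.1 (voom with quality weights, and log2(TPM + 1)), GC offsets, a replicate block, fits of only the groups compared and fits without doubtful or single libraries. A basal epithelium term was added after seeing the data.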

Additional observations from a re-analysis of the deposited data

Results flagged for a closer look

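The levels of each member in the 6 eyecup groups, and the members' mean in all 12 groups, gave 216 sets of libraries that were searched for 1 value far from the others. There were 10 such values, where chance gives about 1 in 20 sets. In knock-in eyecups at 3 months replicate 4 was lowest for Ccna2 (19.4 CPM, the next at 34.3), Ccnb1 (10.6, the next at 18.5) and Pcna (32.4, the next at 54.2). On the TPM scale the gaps were smaller for Ccna2 (26.8, the next at 30.3) and Ccnb1 (17.2, the next at 19.7). Replicate 4 is 1 of the 3 eyecup libraries whose correlation with their group was more than 3 scaled median absolute deviations low. In the same group Aurka was lowest in replicate 9 (7.23 CPM, the next at 9.63) and Spc25 highest in replicate 5 (15.2, the next at 9.39).

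In wild-type eyecups at 17 months replicate 6 was highest for Kif20a (24.2 CPM, the next at 16.6) and Cenpe (21.8, the next at 14.5). In knock-in eyecups at 17 months replicate 2 was highest for Aurkb (14.6 CPM, the next at 9.16). Over the members' mean log2 CPM, replicate 7 of the wild-type retinas at 3 months was high (1.2, the next at 0.913), and its basal epithelial mean of 3.08 was the highest of the retinas. Replicate 2 of the wild-type retinas at 17 months was low (0.462, the next at 0.671).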

How the results depend on the processing

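Single members called in a comparison gave 1158 values under the alternatives: 1024 kept direction and threshold, 131 kept direction only, and 3 changed sign, all of them Pcna on log2(TPM + 1) (knock-in retina 17 against 3 months 0.0034, mean of genotypes 0.0477, eyecup against retina -0.25). Same-numbered libraries had a median r of -0.0253 over 93 eyecup pairs, against 0.0125 for pairs of unlike number. In the retina it was 0.0733 over 115 pairs, against -0.0163. Both were near 0, so within a tissue they were not treated as pairs (pairs across tissues were not checked). With a replicate block, called members were 2 in wild-type eyecups at 17 against 3 months, 17 in the mean of genotypes, and 3 at 9 against 3 months. That last count, 5 as reported, was 16 by voom, 12 on log2(TPM + 1), 16 without libraries that stand apart, 0 without knock-in 3-month eyecups 3 and 4, and 0 with GC offsets. For 17 against 9 months voom called 2. With the basal epithelium term, members called were 2 in wild-type eyecups and 4 in the mean of genotypes at 17 against 3 months (Ccnb2, Foxm1, Mki67 and Spc25), 2 in knock-ins (Mcm4 and Pcna, both higher), 3 at 9 against 3 months, 1 at 17 against 9 months (Spc25) and 1 between genotypes at 3 months (Bub1, lower). Between genotypes in the retina, voom called 1 at 3 months, DESeq2, GC offsets and log2(TPM + 1) each 1 at 17 months (Pcna), and in the mean of ages voom, log2(TPM + 1) and the fit without libraries that stand apart each 2, and no filter 0. For knock-in retinas at 17 against 3 months, 3 members were called without the filter, on log2(TPM + 1) and without libraries that stand apart. Leaving out single libraries gave 2 to 32 members in wild-type eyecups, 18 to 30 in the mean of genotypes, 0 to 0 in knock-ins, and 0 to 0 between genotypes at 17 months. The cause of these moves was not tested. Shares of all genes are not given for the alternatives, so their member counts are descriptions. Low counts limit the retina, where 11 members could not be tested.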
